A study of Mus musculus with 3 samples.

Results

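The cells described here are ectoderm cells of the mouse forelimb bud that carried transcripts of Fgf8, the growth factor that marks the apical ectodermal ridge. They were taken from single-cell RNA sequencing of forelimb buds at embryonic day 9.5. Kept barcodes had 1000 or more detected genes and less than 10% of transcripts from mitochondrial genes, and gene levels per cell were counts of unique molecular identifiers (UMIs) per 10000 UMIs of that cell (CP10K). A cell was called ectoderm when Epcam, Trp63 and Wnt6 summed to at least 2 CP10K, Cdh5, Pecam1 and Emcn to under 1 CP10K, and Prrx1, Tbx5 and Twist1 to under 2 CP10K. Of the 1237 ectoderm cells among 10659 kept barcodes, the 374 with at least 1 CP10K of Fgf8 are called Fgf8 ectoderm below, and the other 863 are called other ectoderm. Control buds were Esco2fl/fl, homozygous for a floxed allele of the gene for the cohesin acetyltransferase ESCO2. Mutant buds were Esco2fl/fl;Prrx1-CreTg/0, so every group carried the floxed allele and the mutants also carried 1 copy of a Cre transgene under control of Prrx1 sequences, which are active in limb mesenchyme and not in the ridge. Libraries of 1 control and 2 mutant samples were used here, called control 1, mutant 1 and mutant 2. Per the labels a replicate joined 6 limb buds, from 2 male samples and 1 female sample of 2 limb buds each. The labels name the cell type as limb bud mesenchyme, while the cells described here are the ectoderm found among them. Whether the replicates came from different litters is not stated in the labels, so a p-value speaks only of how these libraries vary, which may be technical.

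The apical ectodermal ridge is a thickened strip of ectoderm at the rim of the limb bud, where dorsal and ventral ectoderm meet. Its FGF ligands keep the mesenchyme beneath it alive and dividing, and the mesenchyme in turn signals back through FGF10. Canonical WNT signalling in the ectoderm and BMP signalling are needed for the ridge to form. EN1 marks ventral ectoderm and WNT7A dorsal ectoderm, and the ridge forms along the border between them.

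Fgf8 ectoderm was found in every library, with 109 cells in control 1, 154 in mutant 1 and 111 in mutant 2. These were 28.5% of ectoderm cells in control 1 (95% exact Clopper-Pearson interval 24.1 to 33.3), 33.6% in mutant 1 (29.2 to 38.1) and 28.0% in mutant 2 (23.7 to 32.7). The intervals overlap, and no order between the genotypes can be read from them. After every cell was thinned to 10000 UMIs and gated again, with shallower cells left out, the shares were 39.3%, 36.0% and 30.9%. The thinned control thus moved above its own unthinned interval, and the thinned intervals again overlap. The smallest p an exact permutation test can reach with 1 and 2 libraries is 0.333, so the shares carry no test. Intervals of this kind cover counting error only.

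**Figure D1:**
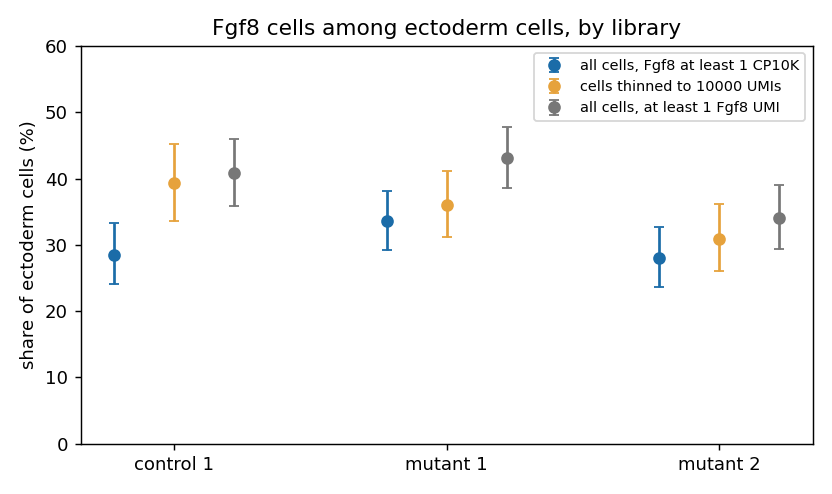
Share of ectoderm cells in the Fgf8 gate (y axis, percent) in each library (x axis), with exact 95% binomial intervals as bars. Blue points use all cells, orange points cells thinned to 10000 UMIs and grey points all cells with at least 1 Fgf8 UMI. The blue points lie between 28.0% and 33.6%, and the bars of the 3 libraries overlap under each measure.

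Fgf8 lies at chr19:45736798-45742915 on GRCm38. Its level chose these cells and is given as a description. It ran from 1.22 to 47.4 CP10K in control 1 with a median of 7.39, from 1.02 to 48.1 in mutant 1 with a median of 6.87, and from 1.11 to 81.2 in mutant 2 with a median of 13.0. The mutant 2 cells thus had the highest median, while the 3 ranges overlap. Of the cells of control 1, mutant 1 and mutant 2, 10, 27 and 8 lay between 1 and 2 CP10K, and 19, 20 and 10 lay between 0.5 and 1 CP10K. The cells nearest to the limit stood at 1.22, 1.02 and 1.11 CP10K inside and at 0.961, 0.959 and 0.988 CP10K outside. Free Fgf8 RNA was low. After thinning, an Fgf8 UMI was seen in 0.517%, 1.03% and 1.40% of erythroid cells, which should lack the gene and whose median depths before thinning were 97184.5, 68907 and 61342 UMIs. A further 9, 13 and 23 kept barcodes reached 1 CP10K of Fgf8 outside the ectoderm gate and were not used.

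Epcam, Trp63 and Wnt6 also chose these cells, through their sum, so their levels are a description and say nothing of their own about identity. In counts per 1000000 of the UMIs summed over a library's cells (CPM), Trp63, the master regulator of stratified epithelium, stood at 785, 832 and 1141 CPM in the Fgf8 ectoderm of control 1, mutant 1 and mutant 2, against 411, 503 and 346 CPM in other ectoderm. Epcam, an epithelial adhesion molecule, stood at 591, 586 and 235 CPM in Fgf8 ectoderm, and the ectodermal ligand Wnt6 at 611, 604 and 254 CPM. Both were lower in mutant 2 than in the other libraries, and they were low in its other ectoderm as well, at 179 CPM for Epcam and 202 CPM for Wnt6. The label of the cells as apical ridge was checked against Bhlha9, a transcription factor gene known from the ridge that the gate did not use. Bhlha9 went against the label: it was lower in Fgf8 ectoderm than in other ectoderm in all 3 libraries, as described below.

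Some features of the libraries bear on every result. The Fgf8 ectoderm sums held 6292964, 5989561 and 2793067 UMIs and those of other ectoderm 9278440 to 12963729, and the median Fgf8 ectoderm cell had 48584 UMIs in control 1, 30382.5 in mutant 1 and 20686 in mutant 2. Between 65 and 117 barcode sequences were shared by a pair of libraries, none of them by Fgf8 ectoderm cells. Scrublet called 19, 56 and 81 doublets, of which 0, 1 and 1 were Fgf8 ectoderm, and these were kept. Erythroid markers, 9 genes led by haemoglobin genes, summed to 434, 4859 and 628 CPM in Fgf8 ectoderm, and 6.42%, 1.30% and 1.80% of its cells had an Xist UMI and no Y-linked UMI, against 84.4%, 95.5% and 91.9% with a Y-linked UMI and no Xist UMI. Cells of the female pattern were thus fewer than the labelled 1 female in 3 pooled samples, and their share differed between libraries. Endothelium markers summed to 27.6 to 50.3 CPM over 10 genes and macrophage markers to 0.484 to 1.77 CPM over 8 genes, with 6, 3 and 5 of these 8 at 0. In Fgf8 ectoderm mesenchyme markers summed to 1387, 1781 and 1616 CPM over 13 genes, nearly all from Meis1 and Meis2. Of the 13, 2, 3 and 3 were at 0, among them Tbx4 and Dcn in each library. In other ectoderm the sums were 2021, 2660 and 2281 CPM. Neural and crest markers summed to 37.3, 136 and 128 CPM over 9 genes in Fgf8 ectoderm, where Sox2, Foxd3 and Pax6 were at 0 in each library, and to 12.8, 55.1 and 102 CPM in other ectoderm. In both populations the mesenchyme sums and the neural and crest sums were higher in both mutants than in control 1. The part of all these marker sums and of the mix of sexes in the differences between genotypes was not tested. The other ectoderm held cells with the coelomic epithelium gene Upk3b and the lateral plate gene Hand1 at a sum of 1 CP10K or more, called Upk3b or Hand1 cells below. They were 28 cells in control 1, 8 in mutant 1 and 88 in mutant 2, and 0 in the Fgf8 ectoderm of any library. Esco2 itself stood at 40.0, 31.2 and 28.0 CPM in Fgf8 ectoderm and at 30.3, 29.2 and 34.0 CPM in other ectoderm, and a 3′ count does not check a deletion elsewhere in the gene. The feature named CRE had no UMI in the 374 Fgf8 ectoderm cells, of which the 109 of control 1 carry no transgene. It was rarely detected even in mesenchyme, in 5.00% of cells in mutant 1 and 5.66% in mutant 2, and in 1.25% and 1.00% after thinning. Its absence here is therefore weak information.

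Which genes set the Fgf8 ectoderm apart from the ectoderm around it was asked first. UMIs were summed per library over each population, and the 6 sums were compared with edgeR's quasi-likelihood test with a term for each library, on the 10701 genes whose mean was 5 CPM or higher. The cells were divided on Fgf8, so genes that follow Fgf8 from cell to cell had to differ, and the ectoderm gate genes were left out. The test called 483 genes higher in Fgf8 ectoderm, 4.51% of those tested, and 532 lower, 4.97%, at an adjusted p under 0.05. The median log2 difference over all tested genes was -0.01. Without the library term 189 genes were called higher and 141 lower.

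Ligands known from the ridge were higher in Fgf8 ectoderm. Of 14 listed genes for such signals 10 passed the filter, 6 were called higher and none lower, and the median of the 10 was 1.39 on the log2 scale. Bmp4, a BMP ligand of the ridge, stood at 221, 128 and 345 CPM in the Fgf8 ectoderm of control 1, mutant 1 and mutant 2, against 45.1, 36.9 and 34.3 CPM in other ectoderm. Every Fgf8 ectoderm value thus lay above every other ectoderm value, and the log2 difference was 2.46 (SE 0.26, edgeR adjusted p = 0.00177). Wnt5a, a ligand of the non-canonical WNT pathway that guides limb outgrowth, stood at 314, 316 and 453 CPM against 90.7, 109 and 73.3 CPM. This was a log2 difference of 1.97 (SE 0.20, edgeR adjusted p = 0.00163), again without overlap. Fgf9, one of the other FGF ligands of the ridge, was lower in level, at 33.9, 23.1 and 27.7 CPM against 7.1, 9.3 and 4.4 CPM, with a log2 difference of 2.03 (SE 0.25, edgeR adjusted p = 0.00295). Bmp2 rose by 2.01 and Bmp7 by 0.78.

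The remaining ligand genes did not pass the test or the filter. Jag2, a NOTCH ligand of the ridge, stood at 119.8, 82.1 and 133 CPM against 78.9, 73.6 and 60.6 CPM, with edgeR adjusted p = 0.0637. Wnt3, Wnt10a and Dkk1 were not called either. Of the FGF ligands that the mature ridge is known to make, Fgf4 had 0, 3 and 15 UMIs in the Fgf8 ectoderm of control 1, mutant 1 and mutant 2, and Fgf17 stood at 2.0 to 6.8 CPM. Neither gene reached the filter. In mutant 2 the 15 Fgf4 UMIs came from 6 cells, and the 0 UMIs among 109 control cells allow a share of up to 2.75% of cells with a UMI. Shh, which belongs to the mesenchyme of the posterior margin, was at 0 in all 6 sums.

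Rspo2, at chr15:43020794-43170826, had the largest fitted difference of the ligand genes. It encodes a secreted protein that binds LGR receptors and keeps WNT receptors at the cell surface, and it is known to be needed for the ridge and for limb growth. It stood at 69.7, 411 and 608 CPM in the Fgf8 ectoderm of control 1, mutant 1 and mutant 2, against 8.7, 15.9 and 6.7 CPM in other ectoderm. The log2 difference was 4.71 (SE 0.56, edgeR adjusted p = 0.0026), and it was higher in Fgf8 ectoderm in 3 of 3 libraries. Its level in the mutants is taken up below.

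Transcription factors of the limb ectoderm mostly followed the same direction, with 2 exceptions. Of 17 listed genes 14 passed the filter, 8 were called higher and 2 lower, with a median log2 difference of 0.66. Without the library term 3 were called higher and 1 lower. Dlx5, a homeobox gene of the ridge whose loss with its neighbour Dlx6 gives split limbs, stood at 86.7, 87.0 and 72.0 CPM in Fgf8 ectoderm against 38.2, 19.1 and 18.9 CPM, a log2 difference of 1.74 (SE 0.19, edgeR adjusted p = 0.0019). Dlx6 rose by 2.21, Dlx1 by 1.28 and Dlx2 by 0.58. Sp8, a zinc finger factor that sustains Fgf8 in the ridge, rose by 0.89, from 81.3, 84.2 and 41.2 CPM in other ectoderm to 135, 126 and 111 CPM. Msx1 rose by 1.06, Tfap2c by 0.98 and Lmx1b by 0.74, while Msx2, Dlx3, Sp6 and Tfap2a were not called.

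The exceptions were En1 and Bhlha9. En1, the ventral ectoderm factor, stood at 40.8, 52.98 and 38.0 CPM in Fgf8 ectoderm and at 104, 142 and 71.7 CPM in other ectoderm. It fell by 1.25 on the log2 scale (SE 0.13, edgeR adjusted p = 0.00162), with no overlap. Bhlha9 stood at 54.2, 19.3 and 35.5 CPM against 76.7, 67.4 and 80.5 CPM and fell by 1.12 (SE 0.22, edgeR adjusted p = 0.0184). Its groups do not overlap, but the call was lost without mutant 1 (-0.81, edgeR adjusted p = 0.0559), without mutant 2 (-1.06, edgeR adjusted p = 0.0808) and without the library term (-1.04, edgeR adjusted p = 0.156). After thinning, 32.1%, 8.89% and 23.3% of Fgf8 ectoderm cells and 38.7%, 35.0% and 40.0% of other ectoderm cells had a Bhlha9 UMI. None of the 387 thinned erythroid cells of control 1 had one, which allows a share of up to 0.775%, nor did any of the 580 and 428 of the mutants.

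**Figure D2:**
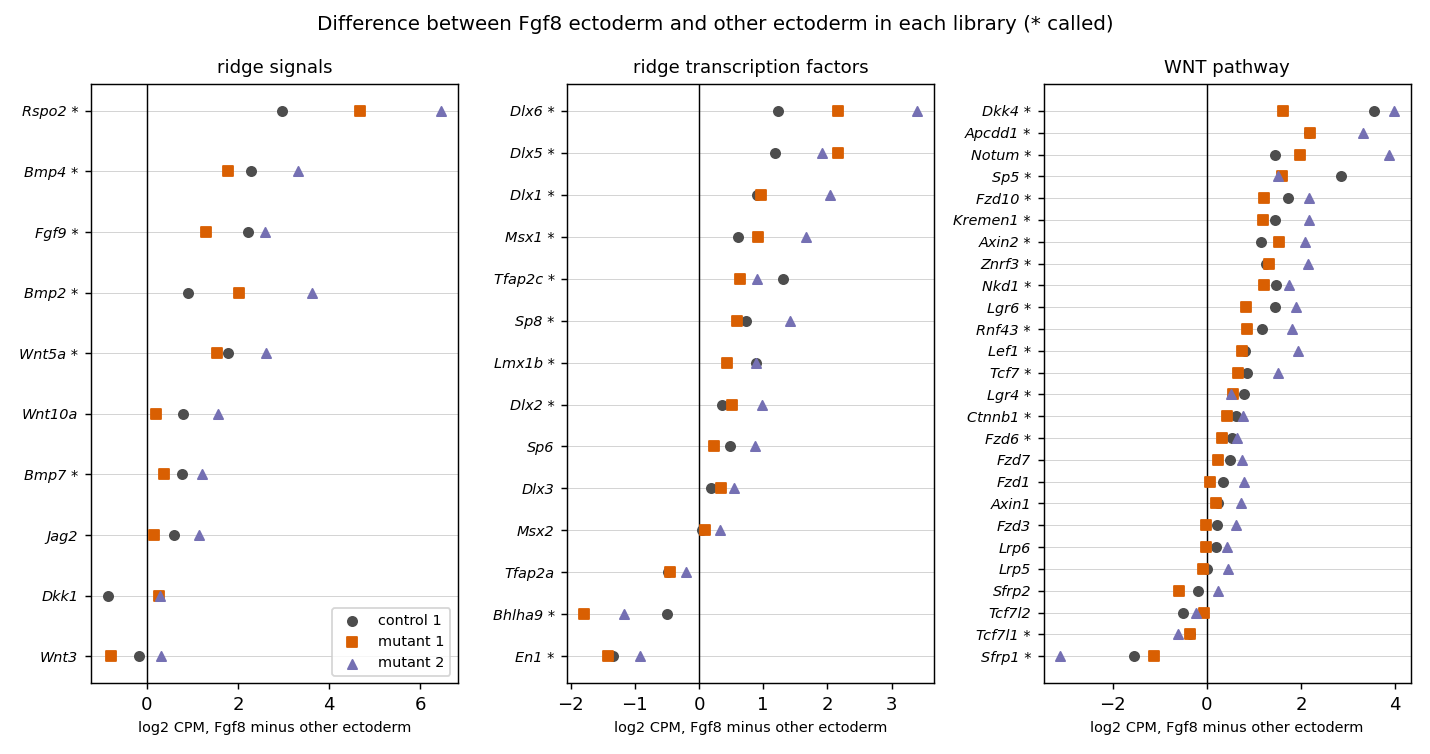
Difference in log2 CPM between Fgf8 ectoderm and other ectoderm (x axis) for the tested genes of 3 lists (y axis), with 1 point per library. A star marks genes called by edgeR, and the order within a list follows the fitted difference. Rspo2, Bmp4, Dlx5 and Axin2 lie to the right of 0 in all 3 libraries, and En1 and Bhlha9 lie to the left in all 3.

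Dorsal and ventral marks were both found among Fgf8 ectoderm cells, and rarely in 1 cell. Of the thinned Fgf8 ectoderm cells 112 came from control 1, 135 from mutant 1 and 103 from mutant 2. An En1 UMI without Wnt7a was seen in 27, 41 and 24 of them, and a Wnt7a UMI without En1 in 34, 26 and 16. Both were seen together in only 2, 1 and 1 cells, and neither in 49, 67 and 62. Other ectoderm cells showed the same separation, with both marks in 4 of 173, 4 of 240 and 1 of 230 cells.

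WNT receptors, regulators and feedback targets formed the list with the most higher calls. Of 28 genes 26 passed the filter, 16 were called higher and 2 lower, with a median log2 difference of 0.81. Without the library term 9 were called higher and none lower. Axin2, a scaffold of the beta-catenin destruction complex and a general readout of canonical WNT signalling, stood at 91.7, 84.0 and 116 CPM in Fgf8 ectoderm and at 41.4, 28.9 and 27.2 CPM in other ectoderm. The log2 difference was 1.57 (SE 0.17, edgeR adjusted p = 0.00188), with no overlap. Among other feedback genes Notum, a secreted enzyme that inactivates WNT ligands, rose by 2.30, and Nkd1, which dampens signalling downstream of Dishevelled, by 1.47. Znrf3 and Rnf43, the ubiquitin ligases that remove WNT receptors and that RSPO proteins block, rose by 1.57 and 1.27. Apcdd1 and Kremen1, inhibitors at the receptor, rose by 2.56 and 1.59, and Dkk4, a secreted antagonist, by 3.74. Dkk4 was low in level, at 22.9, 1.3 and 5.3 CPM against 1.7, 0.3 and 0.1 CPM.

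Genes for parts of the pathway that receive and carry the signal were also called. The DNA-binding factors Lef1 and Tcf7 rose by 1.15 and 0.99, Ctnnb1, which encodes beta-catenin, by 0.61, and the receptor genes Fzd10, Fzd6, Lgr6 and Lgr4 by 1.73, 0.49, 1.46 and 0.63. The other Frizzled receptors on the list, Fzd1, Fzd3 and Fzd7, and the coreceptors Lrp5 and Lrp6 were not called. Sfrp1, a secreted WNT binding protein, fell by 1.75, and Tcf7l1, a factor that mostly represses, fell by 0.44. Sp5, a direct target factor of the pathway, stood at 22.4, 9.1 and 7.4 CPM against 2.9, 2.8 and 2.4 CPM and rose by 2.17 (SE 0.33, edgeR adjusted p = 0.00641).

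The upstream sequences of Sp5 and Axin2 are shown because these are the listed readouts of canonical WNT signalling, and the core letters bound by TCF and LEF factors can be looked for there. The 250 bases before the annotated start are from RefSeq on GRCm38.p6, for Sp5 chr2:70474673-70474922 and for Axin2 chr11:108920099-108920348, both on the plus strand. Capitals mark CTTTGA, the TCF and LEF core, or GGGCGG, the GC box bound by SP family factors, on either strand, and no matches overlap.
Sp5: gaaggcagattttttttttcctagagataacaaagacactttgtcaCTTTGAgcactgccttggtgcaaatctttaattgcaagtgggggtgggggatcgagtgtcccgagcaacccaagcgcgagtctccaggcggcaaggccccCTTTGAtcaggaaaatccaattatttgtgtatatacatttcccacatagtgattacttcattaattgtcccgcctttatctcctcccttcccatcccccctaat
Axin2: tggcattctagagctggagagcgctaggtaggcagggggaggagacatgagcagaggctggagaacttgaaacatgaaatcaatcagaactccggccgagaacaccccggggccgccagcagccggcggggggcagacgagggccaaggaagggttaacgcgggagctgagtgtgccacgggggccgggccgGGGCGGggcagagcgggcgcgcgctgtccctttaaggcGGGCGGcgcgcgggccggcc
The Sp5 window held 2 matches to CTTTGA and none to GGGCGG, and the Axin2 window held 2 matches to GGGCGG and none to CTTTGA. Of the 16 WNT genes called higher, 10 had a window in the RefSeq table, and CTTTGA was in a window of 2 of them, Lef1 and Sp5, against 13.8% of 32851 windows in the whole table. GGGCGG was in a window of 6 of the 10, against 32.7% of all windows. Some genes had several windows, and these matches describe letters, not binding.

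Adhesion and surface genes split within their list. Of 16 genes 15 passed the filter, 6 were called higher and 1 lower, with a median log2 difference of 0.11, which was 0.20 without control 1 and 0.18 without mutant 1. Gja1, the gap junction protein connexin 43 that joins ridge cells, stood at 574, 662 and 720 CPM in Fgf8 ectoderm and at 315, 301 and 199.8 CPM in other ectoderm, a log2 difference of 1.28 (SE 0.18, edgeR adjusted p = 0.00446). Cd44, a hyaluronan receptor known from the ridge, rose by 2.30, the guidance receptor Epha4 by 1.19 and the laminin receptor subunit Itga6 by 0.93. Frem1 and Fras1, which belong to the complex that fixes ectoderm to its basement membrane, rose by 1.39 and 0.61, while Frem2 of the same complex stood at 259, 263 and 289 CPM against 256, 286 and 262 CPM and was not called. The classical cadherins Cdh1 and Cdh3 had log2 differences of 0.09 and 0.10 and were not called.

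Surface ectoderm genes were more often lower. Of 24 genes 19 passed the filter, 2 were called higher and 8 lower, with a median log2 difference of -0.43. The median was -0.20 without mutant 2 and -0.17 without the Upk3b or Hand1 cells, and without the library term 0 were called higher and 4 lower. Keratins differed by type. Krt5, the keratin of the basal layer, stood at 40.0, 70.2 and 107 CPM against 20.6, 27.5 and 26.9 CPM and rose by 1.44 (SE 0.19, edgeR adjusted p = 0.00341). Krt8, a keratin of simple epithelia, stood at 73.6, 70.7 and 65.3 CPM against 376, 167 and 612 CPM and fell by 2.25 (SE 0.32, edgeR adjusted p = 0.00507). Its partner Krt18 fell by 1.82 and Krt19 by 1.64. Grhl3, Wnt7b, Sostdc1 and Wnt4 fell by 1.97, 1.61, 1.46 and 0.69. Without the Upk3b or Hand1 cells of other ectoderm, Krt8 fell by 0.95 (edgeR adjusted p = 0.00046) and Krt18 by 0.75 (edgeR adjusted p = 0.00372). Grhl3, a factor of the periderm, was then not called (-1.12, edgeR adjusted p = 0.0644).

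The responses to FGF, BMP and NOTCH signals were uneven. Of 16 FGF pathway genes 12 passed the filter and 1 was called higher, Spry2, a feedback inhibitor that rose by 0.88. The median log2 difference was -0.06. The FGF target genes Dusp6, Etv4, Etv5, Spry1 and Spry4 were not called, and the receptor Fgfr2 stood at 302, 372 and 350.1 CPM against 341, 385 and 333 CPM. Of 18 BMP pathway genes 13 passed the filter, 3 were called higher and 3 lower, with a median of 0.04. Bambi, a decoy receptor, stood at 514, 531 and 538 CPM against 258, 225 and 148 CPM and rose by 1.36 (SE 0.16, edgeR adjusted p = 0.00263). Smad5 and the receptor Acvr1 rose by 0.88 and 0.47. The BMP target genes Id3 and Id1 were lower, at 226, 158 and 173 CPM against 483, 339 and 289.6 CPM for Id3, which fell by 0.98 (SE 0.11, edgeR adjusted p = 0.00219), and Id1 fell by 0.58. Bmpr1b fell by 0.88. Without the library term Spry2, Acvr1, Id1, Id3 and Bmpr1b were not called, which left 0 FGF calls and 2 higher and 0 lower BMP calls. Of 14 NOTCH genes 7 passed the filter, none was called higher and 3 were called lower, with a median of -0.09: the target Hes1 by 0.90, and the receptors Notch3 and Notch2 by 0.63 and 0.50. The NOTCH calls were 0 without mutant 1, 2 without mutant 2, 1 without control 1 and 0 without the library term.

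Some genes that p53 activates were called higher. Of 32 genes 27 passed the filter, 6 were called higher and none lower, with a median log2 difference of 0.16. Phlda3, an inhibitor of AKT, stood at 157, 122 and 86.2 CPM against 91.1, 66.6 and 30.8 CPM and rose by 1.02 (SE 0.15, edgeR adjusted p = 0.00502). Cdkn1a, the cell cycle inhibitor p21 that is known to be expressed in the ridge, stood at 67.5, 50.1 and 112 CPM against 35.4, 39.1 and 26.4 CPM and rose by 1.10 (SE 0.28, edgeR adjusted p = 0.0476). The others were Trp53inp1, Gadd45a, Plk2 and Ptprt, with log2 differences of 0.99, 0.89, 0.78 and 1.55. Every one of these 6 was higher in Fgf8 ectoderm in all 3 libraries. The calls higher were 3 without mutant 1, 2 without mutant 2, 5 without control 1 and 0 without the library term, so most of these calls depend on which libraries and terms enter the fit. The median was 0.04 without mutant 2 and 0.24 without control 1.

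The calls in the proliferation, cell death and stress lists stand beside 9.49% of all 10701 tested genes called in either direction, 4.51% higher and 4.97% lower. With lists this short the counts were not compared with those shares by a test. All 38 S phase genes passed the filter, 1 was called lower, the helicase subunit Mcm6 by 0.50, and the median was -0.22, with all 38 below 0. That median was -0.37, with 3 called lower, without control 1 and -0.13, with 0 called, without mutant 2. Of 50 G2/M genes none was called and the median was 0.01. Of 21 apoptosis genes 19 passed and 1 was called, Casp8, which fell by 0.86. Of 17 cohesin and Esco genes 16 passed and none was called. Among hypoxia genes 16 of 20 passed, with 1 called higher and 1 lower, and of 16 dissociation response genes 9 passed and 1 was called higher.

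The 12 genes with the largest rise, among those of at least 20 CPM on average and higher in every library, held few classical ridge genes. Vwde, which encodes a secreted protein with von Willebrand and EGF domains, stood at 51.7, 84.2 and 229 CPM in Fgf8 ectoderm against 4.5, 1.5 and 0.9 CPM, a log2 difference of 5.36 (SE 0.59, edgeR adjusted p = 0.00209). Adamts20 and Adamts3, secreted metalloproteases, rose by 3.96 and 2.98. Pcdh19 and Cdh6, cell adhesion molecules of the cadherin superfamily, rose by 3.42 and 3.19, and Lrrc4c, a synaptic adhesion molecule, by 4.33. Grm8, a glutamate receptor, stood at 277, 237 and 341 CPM against 29.4, 37.2 and 9.8 CPM and rose by 3.57. Tubb3, a beta-tubulin best known from neurons, rose by 3.07, the amino acid transporter gene Slc16a10 by 3.48, and Rspo2, Prr16 and Ccser1 complete the 12. All 12 were also called without the library term. The fit joins control and mutant libraries, and the size of some rises differed with genotype. The mutant effect was larger in Fgf8 ectoderm than in other ectoderm for Lrrc4c, Vwde, Rspo2 and Cdh6. These edgeR interactions, at 3.95, 3.31, 2.52 and 2.52, were called, though not in most alternatives. Prr16 was higher in the mutants' Fgf8 ectoderm by 2.91, which was not called.

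The 12 with the largest fall were led by genes nearly absent from Fgf8 ectoderm. Tac2, a tachykinin precursor, had 1, 0 and 1 UMIs in the Fgf8 ectoderm of control 1, mutant 1 and mutant 2 against 437, 117 and 2015 in other ectoderm. Hand1, a factor of lateral plate and extraembryonic tissues, had 2, 0 and 0 UMIs against 893, 96 and 719, and Upk3b, a mesothelial and urothelial protein, 0, 4 and 0 against 101, 28 and 1093. These, with Cryab, Pmp22, Kcnh7, Car4, Dlk1, Lrp2 and Ppp2r2b, had their highest CPM in the other ectoderm of mutant 2, except for Car4, and mutant 2 also had most Upk3b or Hand1 cells. With those cells left out, Pmp22 still fell by 4.03 (edgeR adjusted p = 4.75e-05) and Dlk1 by 1.43 (edgeR adjusted p = 0.000146). Dpf3, a chromatin remodelling subunit, stood at 7.7, 6.4 and 6.0 CPM against 90.2, 71.2 and 112 CPM. It fell by 3.68 (SE 0.16, edgeR adjusted p = 7.57e-05), and by 3.27 without those cells. Without the library term Upk3b, Kcnh7, Car4, Lrp2 and Ppp2r2b were not called.

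Ordering the ectoderm by Fgf8 level showed how these genes followed it within each library. Cells were put in 5 bins, of 0 Fgf8 UMIs, above 0 and under 1, 1 to under 5, 5 to under 15, and 15 or more CP10K. Wnt5a rose from bin to bin in all 3 libraries, from 78.1 to 383 CPM in control 1, from 92.0 to 391 CPM in mutant 1 and from 66.8 to 529 CPM in mutant 2. Bmp4 rose likewise, from 41.4, 35.1 and 30.5 CPM in the lowest bin to 368, 237 and 489 CPM in the highest. Sp8 reached its level early in control 1 and mutant 1, but not in mutant 2. In the cells above 0 and under 1 it stood at 120, 126 and 69.5 CPM, and at 127, 133 and 117 CPM in the highest bin. Bhlha9 was at 71.3, 70.6 and 77.5 CPM in cells without Fgf8 and at 33.5, 4.2 and 16.1 CPM in those with most, and in control 1 and mutant 2 it was highest between, at 87.8 and 114 CPM in the cells above 0 and under 1. Krt8 was highest without Fgf8, at 443, 182 and 672 CPM, and stood at 47.6, 83.9 and 64.5 CPM in the highest bin. The 15 bins held 23 to 261 cells each, all taken from the cells of 1 library, and the order carries no test. These genes had been called on the division by Fgf8 in the same cells, so a difference between low and high bins was built in.

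**Figure D3:**
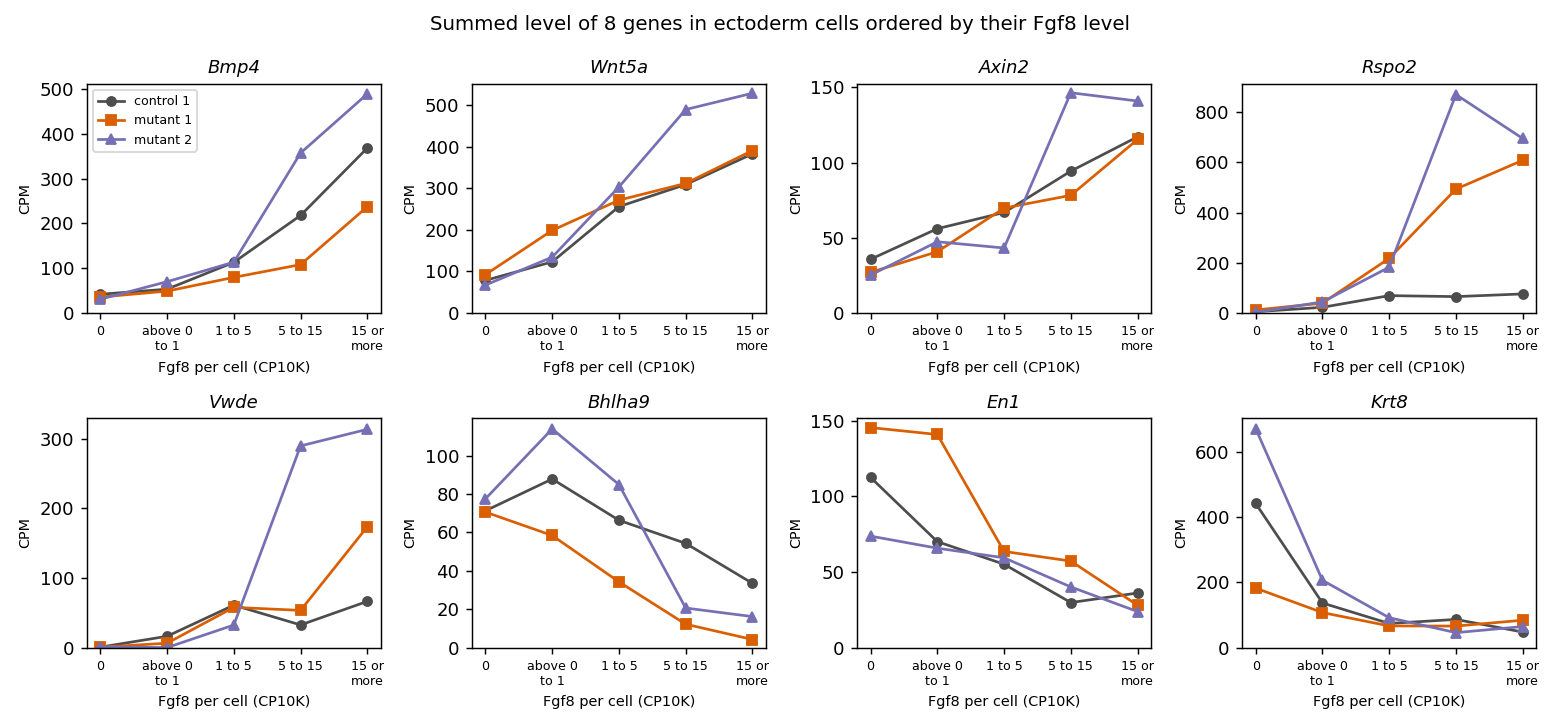
CPM of 8 genes (y axis) in ectoderm cells of each library grouped by their own Fgf8 level (x axis, CP10K per cell), with 1 point for the summed UMIs of 1 bin. Bmp4 and Wnt5a rise with Fgf8 in every library, Bhlha9, En1 and Krt8 are lower in the highest bin than in the lowest, and Rspo2 stays at or below 75.3 CPM in control 1 while it reaches at least 608 CPM in the highest bin of both mutants.

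What the mutant genotype changed in the Fgf8 ectoderm was asked next, with edgeR on the 3 sums of Fgf8 ectoderm and 10534 genes. There is 1 control library, so genotype and library cannot be told apart, and the spread comes from the 2 mutant sums. Only 1 gene was called higher in the mutants, 0.00949% of those tested, and 2 lower, 0.019%, together 0.0285%, while 1134 genes, 10.8%, had an unadjusted p under 0.05. DESeq2 called 34 higher and 8 lower. The count thus depends on the tool, and levels in the 3 libraries carry the description. In other ectoderm, edgeR called 0% of 10736 genes, 290 of them, or 2.7%, reached an unadjusted p under 0.05, and DESeq2 called 5 higher and 2 lower. The test of whether the mutant effect differed between the populations called 16 of 10701 genes higher in Fgf8 ectoderm, 0.15%, and 7 lower, 0.0654%, and 3.71% had an unadjusted p under 0.05.

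The 3 called genes rested on few cells or on the control alone. Pax3, a factor of neural crest and muscle progenitors, stood at 2.3, 95.6 and 60.3 CPM in the Fgf8 ectoderm of control 1, mutant 1 and mutant 2, a log2 difference of 5.11 (SE 0.45, edgeR adjusted p = 0.0345). In both mutants it came from few barcodes: the 5 cells with most Pax3 held 98.9% of its UMIs in mutant 1 and 96.5% in mutant 2. Barcodes with Pax3 and Lbx1 at a sum of 1 CP10K or more numbered 0, 4 and 6, and the sums of myogenic markers, at 87.0, 227 and 175 CPM, and of neural and crest markers, given above, moved with Pax3, which both lists hold. Whether these barcodes hold 2 cells or free RNA was not tested. Tex21 stood at 33.1 CPM in control 1 and at 0.7 and 0.4 CPM in the mutants (edgeR adjusted p = 0.0345), and its 205 control UMIs lay in 4 cells. Gm45889, a long non-coding RNA, stood at 51.7, 5.5 and 4.6 CPM (edgeR adjusted p = 0.0345) and was also highest in the control's other ectoderm, at 23.4 CPM against 8.0 and 5.4 CPM.

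Rspo2 was among the genes nearest to a call. Its 69.7 CPM in control 1 faced 411 and 608 CPM in the mutants, so both mutants lay above the control. The log2 difference was 2.87 (SE 0.32), which edgeR did not call (adjusted p = 0.0522). Over the 19 alternatives with a test the edgeR, DESeq2 or limma adjusted p ran from 1.01e-20 to 0.242, and 12 called it. The share of Fgf8 ectoderm cells with an Rspo2 UMI was 38.5%, 66.2% and 78.4%, and after thinning 24.1% (95% interval 16.5 to 33.1), 55.6% (46.8 to 64.1) and 70.9% (61.1 to 79.4). Erythroid cells had an Rspo2 UMI in 0.258% to 0.701% after thinning, and mesenchyme, which makes the gene, in 21.8% to 35.5%. Within the bins of Fgf8 level, which are wide and carry no test, those from 1 to under 5, 5 to under 15, and 15 or more CP10K held Rspo2 at 68.6, 64.6 and 75.3 CPM in control 1, at 217, 494 and 608 CPM in mutant 1 and at 182, 871 and 696 CPM in mutant 2. In other ectoderm Rspo2 was at 8.7, 15.9 and 6.7 CPM, and the mutant effect was larger in Fgf8 ectoderm than there by 2.52 on the log2 scale (edgeR interaction, adjusted p = 0.0446). That call was lost in 13 of 19 alternatives. The mesenchyme marker sum, which came nearly all from Meis1 and Meis2, was also higher in both mutants. The part of mesenchyme RNA in the Rspo2 values was not tested.

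**Figure D4:**
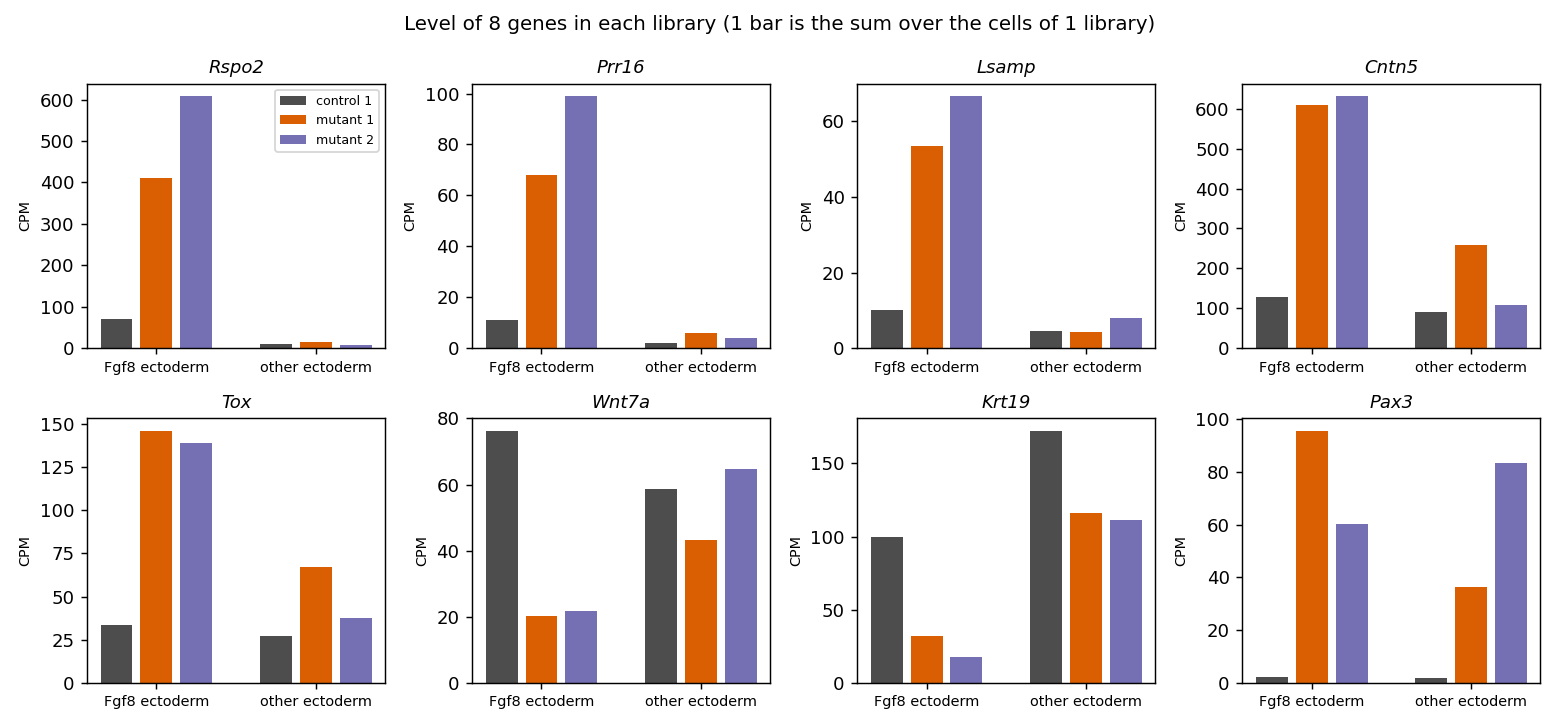
CPM (y axis) of 8 genes in the Fgf8 ectoderm and the other ectoderm (x axis) of control 1, mutant 1 and mutant 2, with 1 bar per library and so no error bar. In Fgf8 ectoderm Rspo2, Prr16, Lsamp, Cntn5 and Tox are higher in both mutants than in the control, and Wnt7a and Krt19 are lower in both. Pax3 is also higher in both mutants, in both populations.

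Wnt7a, the dorsal ectoderm ligand at chr6:91363981-91411363, had the opposite pattern. It stood at 76.2 CPM in the Fgf8 ectoderm of control 1 and at 20.3 and 21.6 CPM in mutant 1 and mutant 2, a log2 difference of -1.87 (SE 0.22) that edgeR did not call (adjusted p = 0.0589, and 0.242 at most over 19 alternatives, 10 of which called it). In other ectoderm it stood at 58.7, 43.4 and 64.7 CPM, and the interaction of -1.69 was called (edgeR adjusted p = 0.0245), though in only 9 of 19 alternatives. After thinning, Wnt7a UMIs were found in 36 of 112, 27 of 135 and 17 of 103 Fgf8 ectoderm cells, with overlapping intervals, and in 0.172% to 0.258% of erythroid cells. In the thinned sums the log2 difference was -1.27.

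Among genes averaging at least 20 CPM with the same direction in both mutants, the others named for a low unadjusted p were not called. On the higher side they were Cntn5, Tox, Lsamp, Prr16 and Zeb2. Cntn5, a neural adhesion molecule, stood at 128, 609 and 631 CPM in Fgf8 ectoderm, and Tox, a nuclear HMG-box protein, at 33.6, 146 and 139 CPM. Lsamp stood at 10.0, 53.5 and 66.7 CPM and Prr16 at 10.98, 68.1 and 99.0 CPM, while Zeb2, a repressor of epithelial genes, was at 2.6, 44.4 and 28.7 CPM. Its UMIs lay in 10 of 109, 45 of 154 and 28 of 111 cells. The 5 cells with most Zeb2 held 68.8%, 47.5% and 51.9% of them in control 1, mutant 1 and mutant 2. Lgi2, Krt19, Stard8 and Pcna were on the lower side. Krt19 stood at 99.8, 31.9 and 17.4 CPM and Pcna, the sliding clamp of replication, at 104, 48.3 and 35.8 CPM, with edgeR adjusted p = 0.136 and 0.175.

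The length of genes moved with this comparison. Rspo2, Prr16, Tox, Cntn5 and Lsamp span 150 kb, 302 kb, 305 kb, 1244 kb and 2197 kb of GRCm38, against 4.15 kb for Pcna and 7.86 kb for Krt19. Over all tested genes, the median log2 difference of mutants and control in Fgf8 ectoderm was -0.09 among the 2633 shortest genes and 0.21 among the 2632 longest, and in other ectoderm it was -0.09 among the 2682 shortest and 0.17 among the 2682 longest. Of the longest genes in Fgf8 ectoderm, 373 were higher and 53 lower at an unadjusted p under 0.05. Length also moved with the comparison of Fgf8 ectoderm against other ectoderm. There the median log2 difference was -0.08 among the 2674 shortest genes and 0.07 among the 2674 longest. Of the longest, edgeR called 272 higher and 242 lower, against 58 and 113 of the shortest. The labels do not state how intronic reads were counted, and the part of gene length in these differences was not tested.

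The listed pathways showed no call between the genotypes in Fgf8 ectoderm beyond Pax3. In sums simulated with the same biological coefficient of variation of 0.25 for every gene, this fit called only 26 of 179 changes of 4-fold (14.5%). That coefficient was not estimated from these data, so the share for the real sums is not known. A gene not called here may still differ between the genotypes. Among the ridge ligands Fgf9 stood at 33.9, 23.1 and 27.7 CPM in control 1, mutant 1 and mutant 2, and Wnt5a at 314, 316 and 453 CPM. The median of the 11 tested ligand genes was -0.11, and that of 14 transcription factors -0.21, against 0.05 over all tested genes. Of 26 tested p53 target genes none was called, and 16 had a positive difference, with a median of 0.20. Cdkn1a stood at 67.5, 50.1 and 112 CPM, so the mutants lay on both sides of the control, while Trp53inp1 stood at 15.7, 39.6 and 46.5 CPM (edgeR adjusted p = 0.172). Of 18 tested apoptosis genes and 16 cohesin and Esco genes none was called, with medians of 0.09 and 0.06. The 38 S phase genes had a median of -0.45, with 3 of 38 positive, and the 50 G2/M genes a median of 0.04. Dkk4 was the largest difference among the 26 WNT genes, at 22.9, 1.3 and 5.3 CPM (edgeR adjusted p = 0.186).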

How the data were processed

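Single-cell libraries of 1 control and 2 mutant samples were used. The deposited values are counts of UMIs per gene and barcode for 31054 features, 31053 of them Ensembl genes, and no normalization had been applied. The file headers name Cell Ranger 7.0.0, and the submitters' processing notes name mm10 and Seurat 4.0.0, in a role not given. How cells were called, the annotation release and the treatment of introns are not stated there.

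The gate was applied with Python 3.11.15, and Scrublet ran in scanpy 1.11.5 at an expected rate of 0.06. UMIs were summed per library and population and compared by the quasi-likelihood test of edgeR 4.0.16 (TMM factors, genes averaging 5 CPM or more, Benjamini-Hochberg adjustment over all tested genes, called under 0.05). The 10 gate genes and 13 mitochondrial genes were left out. DESeq2 1.42.0 and limma 3.58.1 were alternatives. CPM are per 1000000 UMIs of a sum, scaled by its TMM factor, and unscaled in the Fgf8 bins. Per-library log2 values used a prior count of 2. Fits with 1 residual degree of freedom borrow spread across genes. The library term was used because both sums of a library share a sample, and their deviations correlated at 0.33 to 0.57 over genes. The scripts were tested on simulated data.

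Genes named are listed genes, gate genes, and per comparison up to 12 called genes per direction with the largest change, of at least 20 CPM on average and the same direction in every library, or, where fewer were called, up to 6 not called with the lowest p. The cells, the 22 lists and the comparisons were chosen with earlier results of these data known. Of the listed genes 2 were not matched. A few genes that the rule names are not reported here. Coordinates and spans are from GENCODE M21 (GRCm38).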

Additional observations from a re-analysis of the deposited data

Results flagged for a closer look

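The following genes were singled out because their mutant effect differed between the populations in the edgeR interaction test, which called 16 genes higher (0.15% of 10701) and 7 lower (0.0654%). Values are the mutant effect in Fgf8 ectoderm minus that in other ectoderm, on the log2 scale, for the called genes of at least 20 CPM on average and the same direction in both mutants. On the higher side were Lrrc4c at 3.95, Vwde at 3.31, Zeb1 at 3.11, Pdgfra at 2.94, Rspo2 at 2.52, Cdh6 at 2.52, Lsamp at 2.13, Nav3 at 1.86 and Alcam at 1.55. Vwde stood at 51.7, 84.2 and 229 CPM in the Fgf8 ectoderm of control 1, mutant 1 and mutant 2, and Pdgfra, a growth factor receptor, at 6.0, 33.5 and 90.8 CPM, in 23, 69 and 68 cells with a UMI. In other ectoderm Vwde had only 57, 17 and 8 UMIs, in 12, 10 and 4 cells, and 5 cells held 87.7% of the control's. The Vwde value thus also draws on a lower level in the mutants' other ectoderm, where counts were few. On the lower side were Car4 at -2.72, Msrb3 at -2.26, Gria3 at -1.71 and Wnt7a at -1.69. Msrb3 stood at 78.5, 12.9 and 30.5 CPM in Fgf8 ectoderm, and 5 cells held 78.4% of its control UMIs.

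Col1a1, a fibrillar collagen, was singled out at 3.26, and its largest level was in the control's other ectoderm, at 100.2 CPM against 11.8 and 34.8 CPM in the mutants. There 5 of 273 cells held 90.5% of its UMIs. Hba-a1 at 2.10 and Hbb-bh1 at 2.05 are haemoglobin genes and members of the erythroid marker list, with Fgf8 ectoderm levels of 27.4, 416 and 51.1 CPM and 44.9, 733 and 69.2 CPM. Pdgfra is itself in the mesenchyme marker list, whose sum in Fgf8 ectoderm was 1387, 1781 and 1616 CPM, nearly all from Meis1 and Meis2. The part of mesenchyme RNA in the Pdgfra and Zeb1 values was not tested. Zeb1, a repressor of epithelial genes, was at 2.4, 25.3 and 19.2 CPM in Fgf8 ectoderm, and at 24.7 and 35.7 CPM in the other ectoderm of control 1 and mutant 2. With barcodes of Pax3 and Lbx1 left out the test called 0 genes in place of 23.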

How the results depend on the processing

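The 91 genes named for Fgf8 ectoderm against other ectoderm kept their direction under every alternative run, and 177 of 2069 single values lost the call. The count of all genes called, 1015, became 2150 without a low count filter and 330 with no replicate block (no library term), and leaving out 1 library gave 689 to 1158. No paired analysis was possible for mutants against control because the control's label gives no replicate number (the 1 in control 1 is only a name), so the groups share none.

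Mutant against control in Fgf8 ectoderm, 3 genes, gave 17 without called doublets and 26 with Fgf8 of at least 2 CP10K. It gave 11 with other ectoderm limited to 0 Fgf8 UMIs, 53 thinned, 0 with mitochondrial UMIs under 5% and 12 at an ectoderm sum of 4 CP10K. The count was 42 with DESeq2, 15 with library size only, 496 without a filter, 12 at 20 CPM, 10 with limma-trend and 11 with robust spread. Limiting other ectoderm to 0 Fgf8 UMIs, or leaving out its Upk3b or Hand1 cells, left the Fgf8 ectoderm sums of this fit unchanged. Only the TMM factors moved, and both settings are among the 19 alternatives counted for Rspo2 and Wnt7a in this fit. Alternatives chosen after seeing the data gave 1 with any Fgf8 UMI, 10 without Pax3 or Lbx1 barcodes and 15 without cells above 100000 UMIs. Without those deep cells Pax3 was not called (2.87, edgeR adjusted p = 0.599). Each mutant alone gave log2 values with no test, from 2.55 to 3.12 for Rspo2. In other ectoderm the count of 0 became 2 thinned, 7 with DESeq2 and 2 without a filter.

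The interaction, 23 genes, gave in the same order 2, 15, 62, 26, 0, 36, 4, 3, 92, 33, 9 and 18, then 3 at 2000 genes, 0 at a mesenchyme sum under 0.5 CP10K, 11 with any Fgf8 UMI, 183 with Trp63 alone, 0 without Pax3 or Lbx1 barcodes, 16 without deep cells and 143 without Upk3b or Hand1 cells; the cause was not tested. Hba-a1 and Hbb-bh1 reversed against cells with 0 Fgf8 UMIs (-0.20 and -0.023), thinned (-2.75 and -2.22) and with any Fgf8 UMI (-3.03 and -2.73).

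The share of Fgf8 cells moved outside its interval in control 1 to 39.3% thinned and 40.8% with any Fgf8 UMI, in mutant 1 to 27.7% at 2 CP10K and 43.1% with any UMI, and in mutant 2 to 34.0% at 4 CP10K, 34.1% with any UMI, 36.0% with Trp63 alone and 36.0% without Upk3b or Hand1 cells. Depth limits genes under 5 CPM, such as Fgf4, and the lone control limits every mutant comparison.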
